A study of Rattus norvegicus with 2 samples.

Results

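Vasopressin and oxytocin are short peptide hormones made by large neurons of the hypothalamus, and the genes examined here are those of the 2 hormones (Avp and Oxt), of 3 of their receptors (Avpr1a, Avpr1b and Oxtr) and of 3 proteins tied to their production or release (Creb3l1, Caprin2 and Cd38). Members were taken as the probes that the array design names by these 8 symbols, which gave 8 probes and 26 spots for 7 genes, out of 30367 probes. Caprin2 had no probe under its current or older names and was not analysed here. Of the 7 genes, 6 had a probe well above background on both arrays.

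RNA of the hypothalamic paraventricular nucleus was measured on 2 one-colour arrays, both from male Sprague Dawley rats aged 12 weeks. 1 array held RNA of rats exposed before birth, whose mothers received dexamethasone, a synthetic glucocorticoid, at 200 micrograms per kg late in pregnancy, in the last trimester (the prenatal dexamethasone array). The other held RNA of rats from mothers given vehicle (the control array). With 1 array a group there is no error between animals and no test of the treatment, and the sources used here do not say if an array held RNA of 1 animal or of several. The arrays lay on 1 slide, where place on the slide and group cannot be told apart. All differences below are log2, prenatal dexamethasone minus control, after each array was scaled to its 75th percentile. Any error given is the spread of a probe's repeat spots on an array, or from the scanner's own error estimate for a spot, and a gene is called higher or lower at a 2-fold difference, which is a rule of size.

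Magnocellular neurons of the paraventricular and supraoptic nuclei send axons to the posterior pituitary, where vasopressin enters the blood to retain water and constrict vessels and oxytocin to drive milk ejection and labour. Smaller neurons of the paraventricular nucleus make the same peptides and project within the brain, and vasopressin also reaches the anterior pituitary, where it acts with corticotropin-releasing hormone on the stress axis. Each hormone is cut from a precursor that also contains a carrier protein, a neurophysin, and the genes are neighbours that face each other on opposite strands. Suprachiasmatic neurons make vasopressin too.

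The sequences of the hormone and receptor probes are shown because each value below is the signal of 1 such stretch of transcript, and because the hormones, like the receptors, form families of related genes. Each is written 5′ to 3′ as the array design gives it, with coordinates as in the files, and the capitals mark the longest run that the Avpr1a and Oxtr probes have in common and 1 of 3 equally long runs that the Avp and Oxt probes have in common.
Avp, rn4 chr3:118205082-118205141, minus strand: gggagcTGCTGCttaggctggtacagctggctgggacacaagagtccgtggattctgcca
Oxt, rn4 chr3:118194269-118194328, plus strand: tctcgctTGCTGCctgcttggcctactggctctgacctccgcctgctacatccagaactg
Avpr1a, rn4 chr7:62229240-62229298, plus strand: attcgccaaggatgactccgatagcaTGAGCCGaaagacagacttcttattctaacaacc
Oxtr, rn4 chr4:148314115-148314174, minus strand: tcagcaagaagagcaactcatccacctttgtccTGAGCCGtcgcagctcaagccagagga

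The longest shared run was 6 bases between the hormone probes and 7 bases between the receptor probes, of 60 bases in each. How far each probe pairs with the whole transcript of its relative, and the exon it lies in on rn4, were not analysed here.

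The vasopressin and oxytocin genes were both at least 2-fold lower in the prenatal dexamethasone array, while the other 4 measured members, Avpr1a, Oxtr, Creb3l1 and Cd38, lay within 2-fold. By the 2-fold rule 2 of the 6 measured members were lower and 0 higher. The same rule called 338 of all 14175 measured genes lower, which is 2.38%, and 478 higher, which is 3.37%, or 5.76% in either direction. The members were chosen with results of these arrays known, so their count is a description.

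**Figure D1:**
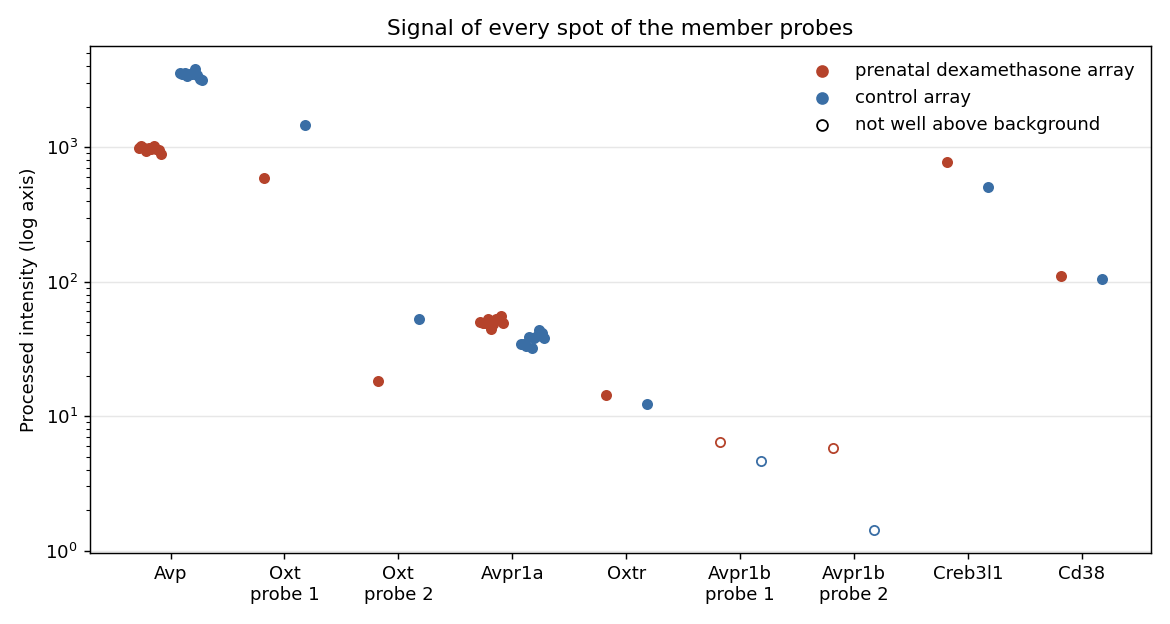
Processed intensity (log axis) of every spot of the member probes, with the prenatal dexamethasone array in red to the left of the control array in blue, and open circles for spots not well above background. Probe 2 of Oxt is the probe across its start site. The 10 Avp spots lie between 889 and 1025 in the prenatal dexamethasone array, below all 10 control spots at 3166 to 3817.

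Avp, which encodes vasopressin and its carrier, was measured by 1 probe spotted 10 times. Its signal ranged over these spots from 889 to 1025 with a median of 978 in the prenatal dexamethasone array, against 3166 to 3817 with a median of 3507 in the control array. The spots of the arrays did not overlap, and all 10 spot pairs were lower, by -1.98 to -1.84. The means were 971 ± 40.7 and 3468 ± 185 (SD over 10 spots; prenatal dexamethasone, then control), a difference of -1.91 with a spot SD of 0.039, or 3.76-fold lower. Other probes of like brightness (within 0.5 log2) that were also spotted 10 times had a median spot SD of 0.036. The Avp spot differences thus varied about as theirs did.

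The Avp probe stood at rank 9039 by brightness in the prenatal dexamethasone array and at rank 4850 in the control array, of 30356 probes with a value on both. It was thus at or above 70.2% of probes in the prenatal dexamethasone array and of 84.0% in the control array. In the order of all gene differences Avp was number 35 from the lowest of 14175. Among 1515 genes of like brightness, 3 (0.198%), Avp included, were at least as far below 0.

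Oxt, which encodes oxytocin and its own carrier, was measured by a single spot, with a signal of 587 in the prenatal dexamethasone array and 1455 in the control array. The scanner's error estimates for these spots were 58.8 and 146, so the intervals of 1 error around the signals do not meet. The difference was -1.38, or 2.61-fold lower, where repeated probes of like brightness had a median spot SD of 0.043. Its rank was 10702 in the prenatal dexamethasone array and 7456 in the control array, and its difference was number 147 from the lowest. Of 1678 genes of like brightness, 9 (0.536%), Oxt included, were at least as far below 0.

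A further probe lies in the oxytocin gene but carries a transcript number in place of the gene's symbol, so the naming rule leaves it out although the design's description of it reads oxytocin. It was found whole in the RefSeq sequence around the Oxt start (GRCr8), with 30 bases upstream of the annotated start and 30 bases after it, and on rn4 it begins 80 bases before the first Oxt probe. Its signal was 18.3 in the prenatal dexamethasone array and 53.2 in the control array, so this dim probe was also lower, by -1.62, where repeated probes of like brightness had a median spot SD of 0.17. Before background subtraction the signals were 79.5 and 114, over a local background of 66.0 on each array. Without background correction its difference was -0.60 and with normexp correction -0.64, so its 2-fold call rests on how background is removed, whereas the first Oxt probe was at -1.32 and -1.30 under the same settings.

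Avp differed more than Oxt: the Avp difference lay 0.53 log2 (1.44-fold) further below 0, at -1.91 against -1.38 on the first Oxt probe and -1.62 on the second. This gap exceeds the spot SD of the Avp probe (0.039) and that of repeated probes as bright as the first Oxt probe (0.043). Against the second Oxt probe the gap is smaller with the main processing only. Without background correction that probe was at -0.60 and with normexp correction at -0.64, where Avp was at -1.85 under both, so the gap is larger there. The scanner's error estimates were wider than these spot SDs. In the prenatal dexamethasone and control arrays they were 58.8 of 587 and 146 of 1455 for Oxt, and 97.1 of 971 and 347 of 3468 for Avp. The gap was not tested against them. The spread between animals, against which the gap would have to be read, was not measured.

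**Figure D2:**
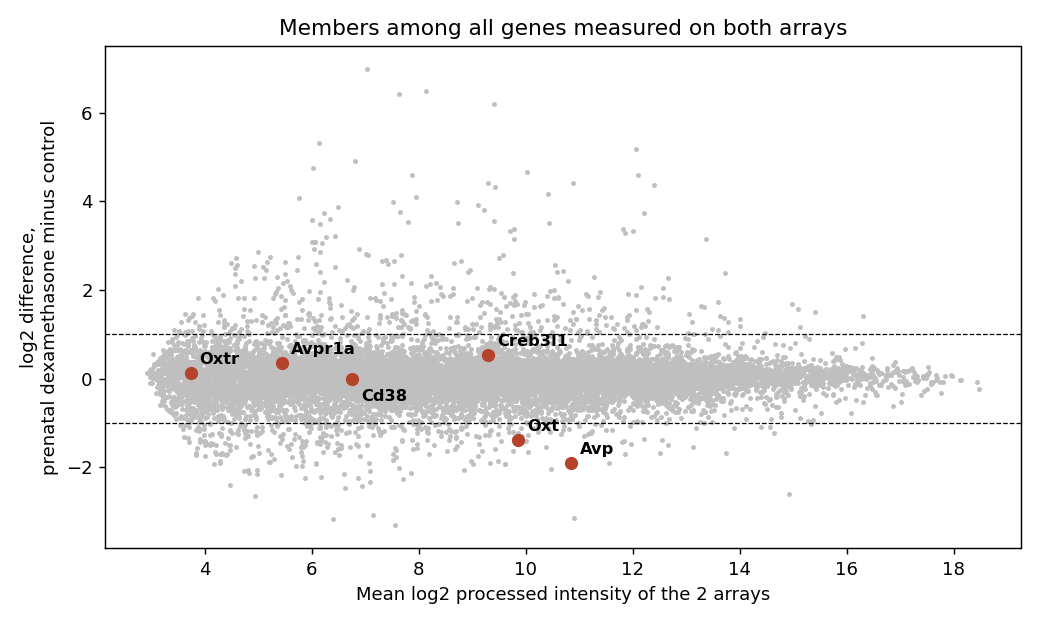
Log2 difference (prenatal dexamethasone minus control) of each of 14175 genes (grey) against its mean log2 processed intensity, with the 6 measured members in red and dashed lines at 2-fold. Avp and Oxt lie below the lower line at -1.91 and -1.38, and the other 4 members lie between the lines.

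The other genes of the locus lay near 0. Within 100000 bases of the Avp probe on rn4 chromosome 3 the array held 9 probes, 3 of them for the hormones. The first Oxt probe and the Avp probe are separated by 10753 bases. On the Oxt side, Mrps26, a mitochondrial ribosomal protein gene, was at -0.019 (19868 in the prenatal dexamethasone array, 19112 in the control array) and Ptpra, a receptor phosphatase gene, at 0.014. On the Avp side, Ubox5, which encodes a U-box protein, was at -0.053 (825 and 812 in the same order), and Fastkd5, Lzts3 and Ddrgk1 were at 0.15, 0.079 and 0.21. All 6 neighbouring probes were measured on both arrays and lay between -0.053 and 0.21, so within this window the 2-fold differences were those of the hormone probes.

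**Figure D3:**
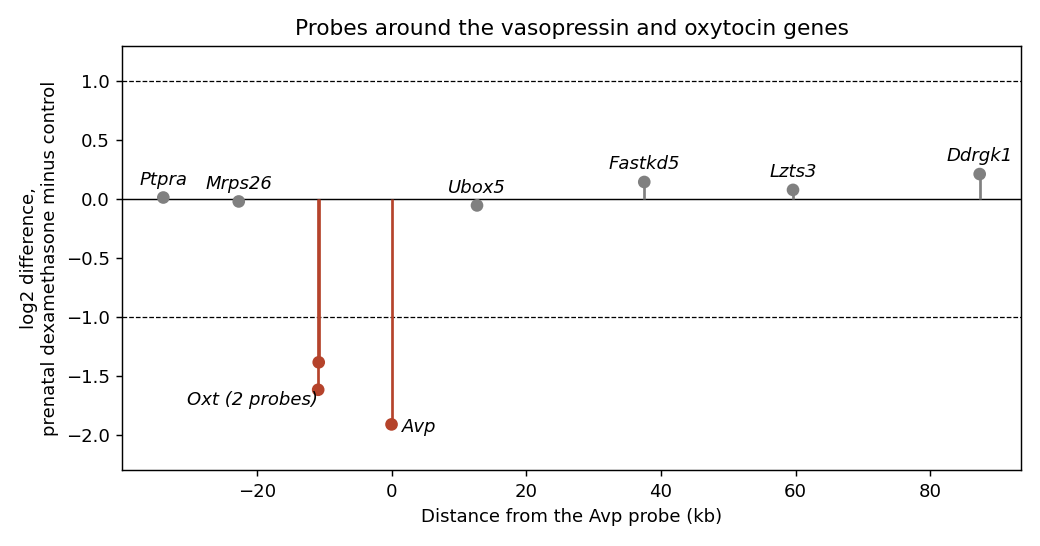
Log2 difference (prenatal dexamethasone minus control) of the 9 probes around the vasopressin and oxytocin genes, against distance from the Avp probe in kb (rn4); dashed lines mark 2-fold. The Avp probe and both Oxt probes (red) lie at -1.91, -1.38 and -1.62, and the 6 neighbours (grey) between -0.053 and 0.21.

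The 250 bases before the RefSeq start of each hormone gene are shown since the genes were lower together and since the second Oxt probe reaches into this region. Sequences are from RefSeq (GRCr8), 5′ to 3′ on the strand of the gene, and capitals mark any match to 6 short motifs searched on both strands.
Avp, GRCr8 chr3:138248523-138248772, minus strand: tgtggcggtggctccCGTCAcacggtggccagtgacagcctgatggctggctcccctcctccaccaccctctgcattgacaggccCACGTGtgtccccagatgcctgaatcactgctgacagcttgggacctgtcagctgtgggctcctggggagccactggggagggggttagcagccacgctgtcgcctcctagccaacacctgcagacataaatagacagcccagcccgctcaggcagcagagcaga
Oxt, GRCr8 chr3:138235504-138235753, plus strand: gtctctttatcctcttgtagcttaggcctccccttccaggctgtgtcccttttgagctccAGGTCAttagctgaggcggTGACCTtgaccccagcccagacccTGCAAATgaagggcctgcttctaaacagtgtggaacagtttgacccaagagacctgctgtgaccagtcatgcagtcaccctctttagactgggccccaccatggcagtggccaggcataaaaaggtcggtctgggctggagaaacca

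The Avp window held 1 match to CACGTG, the core of a palindromic E-box, starting 165 bases before the start, and 1 match on the opposite strand to TGACG, the core of a cyclic AMP response element, starting 235 bases before it. The Oxt window held neither. It held 2 matches to TGACCT, a core that nuclear receptors bind, at 190 (opposite strand) and 171 bases, and 1 match to TGCAAAT, which resembles a POU factor site, at 147 bases. No 2 matches overlapped, neither window held AGAACA, a core of glucocorticoid response elements, or TATAAA, and the gene windows shared no motif of the 6. Only exact matches were searched. Both windows hold CATAAA, which differs from TATAAA in 1 base and was not among the motifs searched. Of 33469 rat promoter windows of this length, 5.59% held CACGTG, 18.2% TGACG, 14.1% TGACCT, 3.54% TGCAAAT, 17.5% AGAACA and 12.9% TATAAA. These motifs were chosen with the sequences in view, and a match describes letters, not binding.

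Among the receptors, Avpr1a encodes the V1a receptor, which couples to Gq proteins in brain and vessels. Its probe was spotted 10 times, with a signal of 44.8 to 55.8 and a median of 49.8 in the prenatal dexamethasone array, against 32.0 to 43.7 and a median of 38.4 in the control array. Before scaling, the spots of the arrays were only just apart (44.8 against 43.7), and after scaling their ranges overlapped. All 10 scaled pairs were higher, by 0.19 to 0.49. The difference was 0.36 with a spot SD of 0.096, or 1.28-fold higher, below the 2-fold rule. It exceeds the error of repeated spots, but 435 of 1076 genes of like brightness (40.4%) differed at least as much either way, and it was 0.11 without background correction.

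Oxtr, which encodes the single oxytocin receptor, was dim, with a signal of 14.3 in the prenatal dexamethasone array and 12.4 in the control array. The scanner's errors were 2.26 and 1.97, so the signals lay within 1 error of each other, and the difference of 0.13 was smaller than the median spot SD of 0.30 for repeated probes of like brightness. Its sign turned to -0.016 with normexp correction and to -0.044 without background correction, so no difference was detectable at this brightness.

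Avpr1b encodes the V1b receptor, known from pituitary corticotrophs and from a small field of the hippocampus. Its 2 probes (rn4 chromosome 13, 44547210 to 44547269 and 44546928 to 44546987) failed the scanner's test for being well above background in both groups. Their signals were 6.43 and 5.78 in the prenatal dexamethasone array and 4.64 and 1.43 in the control array, where the dimmest probe well above background had 7.31 in the prenatal dexamethasone array and 5.86 in the control array. No fold is given for Avpr1b, because both groups have only an upper bound.

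Of the proteins tied to production and release, Creb3l1 is a membrane-bound transcription factor that activates Avp transcription in rat hypothalamus. Its probe (rn4 chromosome 3, 76361171 to 76361230) had a signal of 773 in the prenatal dexamethasone array and 506 in the control array, with scanner errors of 77.3 and 50.6. It was 1.45-fold higher (0.54), below the 2-fold rule and opposite in sign to Avp at -1.91. Repeated probes of like brightness had a median spot SD of 0.046, and 257 of 1676 genes of like brightness (15.3%) differed at least as much either way.

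Cd38, which encodes an ADP-ribosyl cyclase needed for normal oxytocin release in mice, had the smallest difference of the 6 measured members. Its signal was 110 in the prenatal dexamethasone array and 105 in the control array, which scaling brought to a difference of -0.0070 (rn4 chromosome 14, 72320806 to 72320865). It lay within -0.031 and 0.043 over the settings tried, where repeated probes of like brightness had a median spot SD of 0.099.

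The genes whose pair of scaled values came closest to that of Avp over the 2 arrays were P3h3 (a collagen hydroxylase family gene), Casq2 (calsequestrin), Slc9a5 (a sodium-proton exchanger), Abca7 (a lipid transporter) and Clk4 (a kinase of splicing factors), at distances of 0.53 to 0.58 log2. Casq2 had 715 in the prenatal dexamethasone array and 2792 in the control array, a difference of -2.04. For Oxt the closest were Zcchc7, Ces5a, Ano1, Irx2 and Grid2ip, at 0.12 to 0.21. Zcchc7, which encodes a zinc finger protein, had 620 in the prenatal dexamethasone array and 1366 in the control array (-1.21). With 2 arrays this likeness rests on 2 values a gene.

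The wider pathway was described through 5 gene lists, read against a median of 0.0089 over all measured genes and against the 3.37% of them that were higher and 2.38% lower by the 2-fold rule. Of the close partners of the members, 0 of 9 measured genes were higher and 0 lower by that rule, with a median of -0.028. In a list this short a count of 0 is near the 5.76% of all genes called either way. Those furthest from 0 were Creb3l3, a homologue of Creb3l1 (-0.44, but -0.058 with normexp correction), Esr2, the oestrogen receptor of many oxytocin neurons (0.43, but -0.077 with normexp correction), and Trpm2, a channel gated by the product of Cd38 (-0.42). Avpr2, the V2 receptor of the kidney, was dim, with 26.2 in the prenatal dexamethasone array and 31.8 in the control array, and Lnpep, the peptidase that degrades oxytocin, was at 0.30.

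Genes for prohormone processing and granule cargo, which cut the hormone precursors and pack them into dense-core vesicles, had 0 of 14 measured members higher and 0 lower by the 2-fold rule, also near the 5.76% over all genes, with a median of -0.049. Cadps2, a priming factor of dense-core vesicles, was furthest from 0 at -0.94 (1641 in the prenatal dexamethasone array, 2985 in the control array). Chga and Scg3, which encode granule proteins, were at 0.49 and 0.47.

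Among transcription factors that specify magnocellular neurons, 1 of 6 measured genes was higher by the 2-fold rule (3.37% over all genes) and 0 lower (2.38%), with a median of 0.13. The 1 was Fezf2, a factor of forebrain and cortex, with 457 in the prenatal dexamethasone array and 10.8 in the control array (5.32, and 2.93 with normexp correction). The count of higher genes was 0 among genes at or above the median signal and 2 with no filter on dim probes. Sim1 and its homologue Sim2 were at -0.31 and -0.32, and at -0.13 and -0.11 without background correction.

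Among co-transmitters and osmotic regulators of these neurons, 4 of 20 measured genes were higher by the 2-fold rule (3.37% over all genes) and 0 lower (2.38%), with a median of 0.14. Crym, a thyroid hormone binding protein, was at 3.16 (32442 in the prenatal dexamethasone array, 3450 in the control array), the CART peptide gene Cartpt at 1.91, prodynorphin (Pdyn), an opioid precursor that vasopressin neurons also make, at 1.84, and Crh, the corticotropin-releasing hormone gene, at 1.39 and 1.55 on its probes. Avp was at -1.91 in the same comparison. The list ran both ways, with 12 genes above 0 and 8 below. Among those below were Gal (-0.56 and -0.52 on its probes), Slc17a6 (-0.87) and Trpv2 (-0.87), all within 2-fold.

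Genes of Gq and calcium signalling, the route by which the V1 and oxytocin receptors act, held 18 measured genes, of which 3 were higher (3.37% over all genes) and 1 lower (2.38%) by the 2-fold rule, with a median of 0.24. The higher ones were the G protein subunit Gna14 (2.17), the protein kinase C gene Prkca (1.86, and 0.96 on its other probe) and the phospholipase gene Plcb1 (1.43 on each of its probes). Prkcb, another protein kinase C gene, was at 0.50 on the probe counted and at 1.16 on its other probe. Plcb4, another phospholipase C, was at -1.07, and at -0.95 with normexp correction. Gnaq and Gna11, the receptors' usual G protein partners, were at 0.53 and 0.56.

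**Figure D4:**
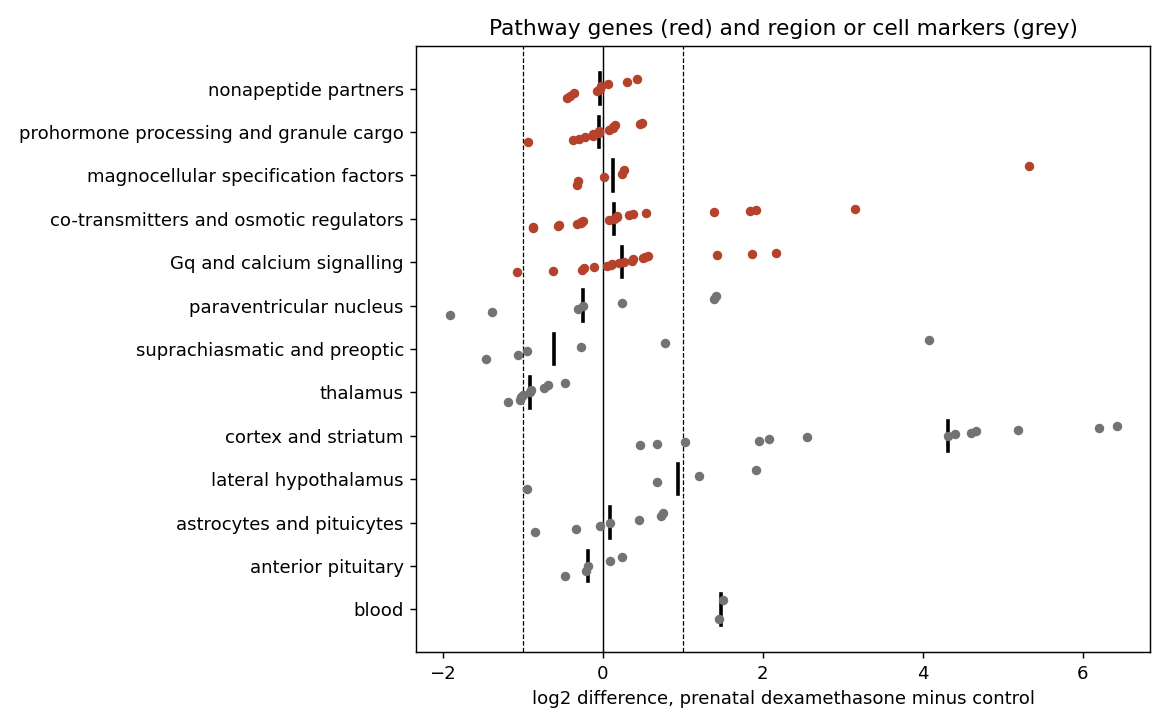
Log2 difference (prenatal dexamethasone minus control) of each measured gene in the 5 pathway lists (red) and the 8 region or cell marker lists (grey), with a black bar at each list's median and dashed lines at 2-fold. The pathway medians lie between -0.049 and 0.24, while the cortex and striatum markers have a median of 4.32 and the thalamic markers -0.91.

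Markers of the labelled tissue and of its neighbours differed between the arrays, which bears on Avp and Oxt as region markers themselves. Sim1, which defines the nucleus in development, had 12.0 in the prenatal dexamethasone array and 14.1 in the control array, and Otp was well above background in the prenatal dexamethasone array alone (8.26 against 1.92), so these defining factors were at or near background. Of 7 measured markers of the nucleus 2 were lower by the 2-fold rule (Avp and Oxt) and 2 higher (Crh and the somatostatin gene Sst), with a median of -0.24. Their summed signal was 24421 in the prenatal dexamethasone array and 13676 in the control array, a direction that Sst sets, since without it the sums were 3121 and 6074 in the same order. That lower remainder includes Avp and Oxt, so it restates their values and is no separate measure of the nucleus. Of its other genes, Crh (636 and 230) and Pou3f2 (361 and 290) had more signal in the prenatal dexamethasone array. Trh (554 and 622) and Sim1 had less. For all marker counts here, the shares over all measured genes were 3.37% higher and 2.38% lower by the 2-fold rule. Of 9 thalamic markers all 9 were below 0, as were 6900 of all 14175 measured genes. Of the 9, 3 were at least 2-fold lower (summed signal 68027 against 121050, prenatal dexamethasone then control). Of 13 cortex and striatum markers all 13 were above 0, as were 7275 of all 14175 measured genes, and 11 were at least 2-fold higher (76513 against 6292). The smallest of these differences were those of the striatal genes Drd1a (0.47), Ppp1r1b (0.68, and 0.53 on its other probe) and Drd2 (1.03, and 0.52 on its other probe). Of 6 measured suprachiasmatic and preoptic markers 2 were at least 2-fold lower, among them Vip (2812 against 5558), and 1 was higher (3615 against 6264 summed, but 804 against 706 without Vip), with Prok2 and Six6 too dim on both arrays to be measured. Of 4 lateral hypothalamic markers 2 were higher at 2-fold (28845 against 12265, of which 3220 against 1657 without Pmch), while Lhx9 was at -0.94. Both measured blood genes were higher at 2-fold (75720 against 25412). Of 7 astrocyte and pituicyte and 5 anterior pituitary genes 0 were past 2-fold (Gfap was at 0.73, and at 1.14 on its other probe), with the pituitary genes Gh1 and Prl too dim to be measured. In lists this short a count of 0 is near the 5.76% of all genes called either way. In bulk tissue, fewer hormone neurons and less hormone RNA per neuron cannot be told apart, and the part of these marker differences in the values of Avp, Oxt and the higher list genes was not tested.

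Over 12 settings Avp lay between -1.95 and -1.85 and the first Oxt probe between -1.39 and -1.30, so both were at least 2-fold lower under each. Settings that only choose among genes or probes could not move these values, since each gene had a single measured probe under its name. In the authors' deposited value table Avp had 937 in the prenatal dexamethasone array and 3629 in the control array, and Oxt 572 and 1503 in the same order. Creb3l1 lay between 0.50 and 0.55.

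**Figure D5:**
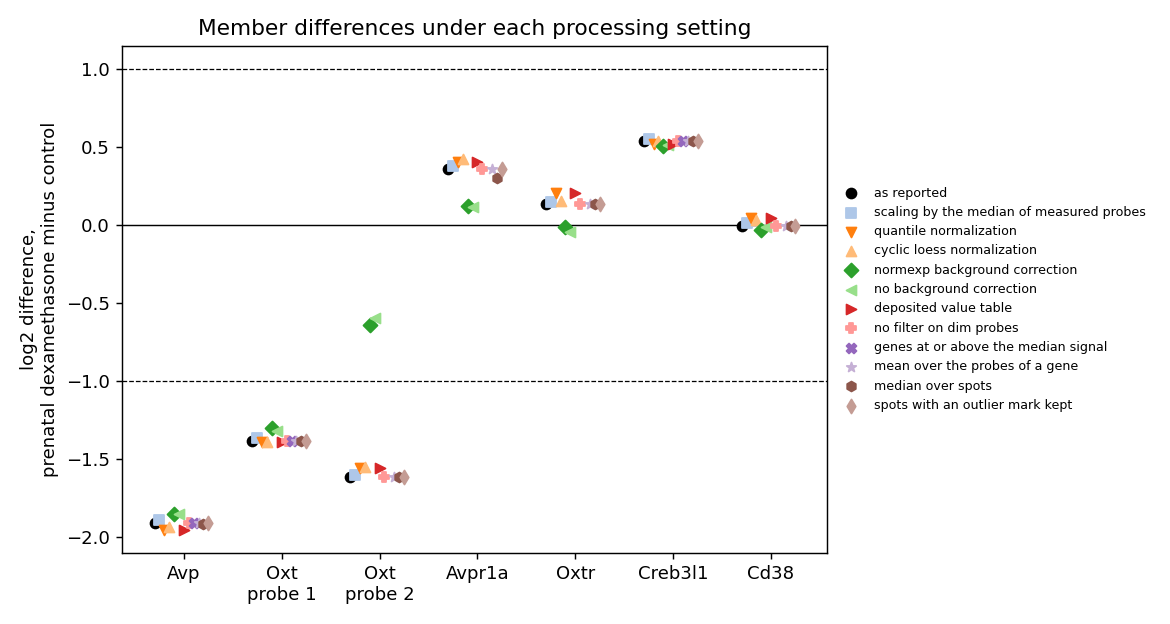
Log2 difference (prenatal dexamethasone minus control) of the member probes under each processing setting (symbols), with dashed lines at 2-fold. Avp and the first Oxt probe stay below the lower line under every setting shown, and the second Oxt probe lies at -0.64 and -0.60 with normexp correction and without background correction.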

How the data were processed

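The deposited array files give the linear intensity of each spot, already background-subtracted and detrended by Feature Extraction 10.7.1.1, per the file headers (9.5.1.1 per the submitters' processing notes). Probe positions are rn4. The deposited value table holds a further normalized intensity with a median of 149.9 in both columns; how it was normalized was not stated in the files used here, and its direction was settled by a correlation of 0.996 with the scanner differences. Spots with an outlier mark (249 prenatal dexamethasone, 267 control) were dropped, and 0 spots were saturated. Repeat spots were averaged as log2 values, and each array's 75th percentile was subtracted (1477 and 1402 as linear signal in the same order). Well above background were 78.2% and 79.5% of 30367 probes. A gene took its brightest measured probe. Names came from RefSeq (GRCr8): 18006 probes by accession, 2654 by symbol, 559 by older symbol, and 9148 kept the file's name and were left out of gene counts. Normexp (offset 50), quantile and cyclic loess used limma 3.58.1; the steps were tested on simulated data. The members, lists and settings were chosen with earlier results of these data known. Named were all members, pathway list genes past 2-fold, the 3 furthest from 0 in each such list, and the 5 genes nearest Avp and Oxt; others were chosen after their values were seen.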

Additional observations from a re-analysis of the deposited data

How the results depend on the processing

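Avp and the first Oxt probe were at least 2-fold lower under all 11 alternatives, and no value of the members past 2-fold changed sign. Not all of these alternatives could move the values. Dropping the filter on dim probes, keeping the brighter genes or averaging a gene's probes left them at -1.91 and -1.38. The averaging did not include the second Oxt probe, which carries another name. The spot median and the keeping of marked spots could move the single Oxt spot only through scaling. The count of genes at least 2-fold higher, 478 as reported, was 283 with normexp correction, 279 without background correction, 870 with no filter on dim probes, 178 for genes at or above the median signal and 1035 at 1.5-fold. The count at least 2-fold lower, 338 as reported, was 130, 133, 732, 68 and 1066 in the same order. These settings change how dim probes are treated, how many genes are counted or the size counted. The likeness of Ano1 and Irx2 to Oxt rested on 1 probe: averaged over their probes they were at -0.37 and -0.82. The slide as a block was not run, since each group is 1 array. No paired analysis was possible because each group has 1 array. Precision is limited by having 2 arrays, and for dim probes such as Oxtr and the second Oxt probe so does the signal over background.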
